A study of Mus musculus with 8 samples.

Results

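Muc1, Muc4, Muc15, Muc16, Muc20 and Clca1 were followed in the whole mouse uterus with and without the orphan nuclear receptor NR2F2 (COUP-TFII). These 6 genes were chosen by symbol as the cell-surface mucins of the uterine lumen together with Clca1. The deposited table lists 24963 genes, and 5 of the 6 symbols have a row in it. Muc16 was not analysed here. Of the 5, Muc1, Muc4, Muc20 and Clca1 reached a mean of 0.5 FPKM and entered the test across 14323 genes. Muc15 stayed under that level and is described by its values only.

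The 8 libraries are poly(A) RNA-seq of 8 uteri collected at gestation day 3.5 from C57B6/J females, whose age the labels give as 8 weeks. The females had been mated with vasectomized males, so the uteri carried no embryos. The 4 control mice had the genotype Nr2f2 f/f, with floxed Nr2f2 alleles and no Cre. The 4 Nr2f2 d/d mice had the genotype Pgr Cre/+; Nr2f2 f/f, with the same floxed alleles and a Cre knocked into 1 allele of the progesterone receptor gene Pgr. That Cre acts in every cell type that expresses Pgr, and the controls keep both Pgr alleles intact, so the loss of Nr2f2 and the loss of 1 Pgr allele cannot be told apart here. Replicates are numbered as in the sample titles, which differ from the numbers of the deposited columns. The labels do not say that either numbering pairs the mice of the groups, and the groups were compared as unpaired.

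Levels are given as FPKM, mapped fragments scaled to transcript length and library total, which allows levels of different genes to be set side by side. Sequencing depth, recovered from the spacing of low values, lay between 61500000 and 92700000 fragments per library. Nr2f2 was at 21.8 to 25.7 FPKM in the controls and at 6.90 to 9.74 FPKM in the d/d uteri, so all libraries matched their labels. Differences are log2 fold changes, d/d minus f/f, on the scale of log2(FPKM + 0.5), each with its standard error (SE) from limma and a Benjamini-Hochberg adjusted p over all genes tested. A gene is said to have risen or fallen only at an adjusted p under 0.05, which 375 genes (2.62%) reached.

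Membrane mucins are large, heavily O-glycosylated proteins that form the glycocalyx on the apical face of epithelia. In the uterus the glycocalyx of the luminal epithelium covers the surface that an embryo meets, and in mice Muc1 is known as an estrogen-stimulated gene whose level goes down before implantation under progesterone. Clca1 belongs to the calcium-activated chloride channel regulator family. It is a secreted protein with protease activity, best known from the mucus of goblet cells in gut and airway rather than as a membrane mucin.

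The genes lie at 4 separate places in the genome (mm10, GENCODE vM21 annotation). Muc1 occupies bases 89229057 to 89233381 of chromosome 3 (plus strand), with 7 exons and none of its 2346 exon bases shared with another gene. Clca1 occupies bases 145003817 to 145032776 of the same chromosome (minus strand), with 15 exons, and Clca4a and Clca2 flank it. Muc15 spans bases 110721340 to 110739527 of chromosome 2 (plus strand), inside the span of Ano3, which runs on the other strand. Muc4 (plus strand, bases 32735886 to 32782391) and Muc20 (minus strand, bases 32777419 to 32797435), both of chromosome 16, run towards each other and overlap at their 3′ ends. The overlap covers 627 exon bases, which is 5.33% of the exon bases of Muc4 and 15.6% of those of Muc20. The library kit does not mark the strand of a transcript, so fragments from the overlap cannot be assigned to either gene with certainty.

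The promoters of Muc1, Muc4 and Muc20, the 3 of these genes with an entry in the RefSeq promoter set, are printed to show what precedes 3 mucin genes measured in the same tissue, 2 of which end on each other. Each line holds the 250 bases before the annotated start (RefSeq, GRCm38.p6), 5′ to 3′ on the strand of the gene, with matches to a GC box (GGGCGG) or a TATA box (TATAAA) in capitals. The windows are chr3:89228806-89229055 for Muc1, chr16:32735636-32735885 for Muc4 and, on the minus strand, chr16:32797436-32797685 for Muc20.
Muc1: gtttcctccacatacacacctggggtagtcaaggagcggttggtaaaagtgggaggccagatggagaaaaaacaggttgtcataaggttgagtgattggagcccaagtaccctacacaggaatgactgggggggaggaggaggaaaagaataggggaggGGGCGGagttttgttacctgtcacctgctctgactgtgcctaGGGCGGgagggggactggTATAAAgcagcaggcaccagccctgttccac
Muc4: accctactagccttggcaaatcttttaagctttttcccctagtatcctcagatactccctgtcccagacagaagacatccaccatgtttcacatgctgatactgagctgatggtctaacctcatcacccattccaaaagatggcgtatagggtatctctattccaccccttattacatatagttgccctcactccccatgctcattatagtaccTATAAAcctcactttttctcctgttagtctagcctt
Muc20: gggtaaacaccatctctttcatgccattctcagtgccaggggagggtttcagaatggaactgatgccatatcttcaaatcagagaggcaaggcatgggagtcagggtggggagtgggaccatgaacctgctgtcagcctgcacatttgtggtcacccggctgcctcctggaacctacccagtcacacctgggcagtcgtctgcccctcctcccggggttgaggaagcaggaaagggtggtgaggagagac
The Muc1 window held GC boxes that began 91 and 49 bases before the start and a TATA box 31 bases before it. The Muc4 window held a TATA box 36 bases before the start, and the Muc20 window held neither motif. Over 32851 windows of the same length, 32.7% held a GC box and 12.4% a TATA box, both strands searched. None of the 3 windows held a full estrogen response element (GGTCA, any 3 bases, TGACC, in 0.0639% of windows), a progesterone receptor element (GNACA, any 3 bases, TGTNC, 0.387%), a STAT site (TTCNNNGAA, 7.02%) or the nuclear receptor half-sites AGGTCA (14.0%) and GGGTCA (11.6%). A full estrogen response element preceded by A or G also contains a half-site. The share of G and C was 54.8% for Muc1, 43.6% for Muc4 and 57.2% for Muc20.

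Muc1 was more abundant than Muc4, Muc15 and Muc20 in every library. It carries a short tandem-repeat ectodomain and a signalling tail. The f/f uteri held 16.1, 15.3, 24.3 and 16.5 FPKM (replicates 1 to 4). The d/d uteri held 53.7, 32.4, 66.9 and 22.1 FPKM. Replicates 1, 2 and 3 of the d/d group lay above every control, while replicate 4 lay below the highest control. The means were 18.1 ± 4.21 FPKM (SD, n = 4) in f/f and 43.8 ± 20.3 FPKM (SD, n = 4) in d/d. The log2 fold change was 1.15 (SE 0.334) with a limma adjusted p of 0.106, so Muc1 did not pass the threshold, and the exact two-sided permutation test over the 8 libraries gave p = 0.0571. With 4 mice against 4 that test cannot go below 0.0286. Without d/d replicate 4 the log2 fold change was 1.44 and the limma adjusted p was 0.0447. Trim46, whose nearest end is 795 bases from Muc1, was at 2.98 FPKM in f/f and 2.81 FPKM in d/d on average.

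**Figure D1:**
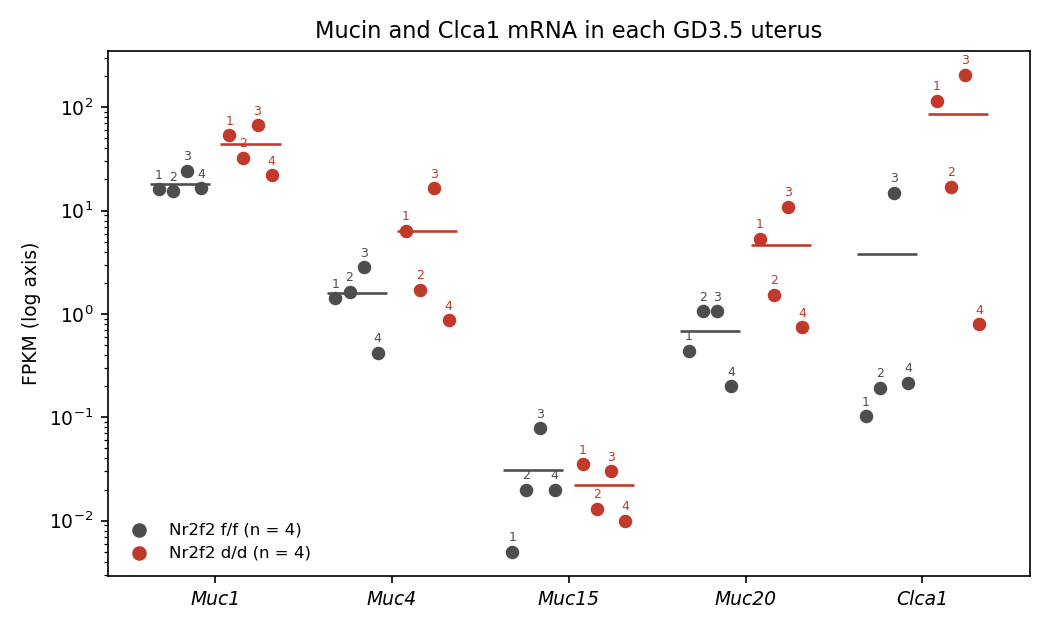
FPKM of Muc1, Muc4, Muc15, Muc20 and Clca1 on a log axis in each f/f and d/d uterus. Numbers beside the points are replicates and bars are group means, and the Clca1 points span from 0.102 to 207 FPKM while the Muc1 points span from 15.3 to 66.9 FPKM.

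Muc4, a very long mucin that can bind the receptor ERBB2, was far less abundant than Muc1. It stood at 1.42, 1.65, 2.85 and 0.420 FPKM in the f/f uteri. In the d/d uteri it stood at 6.38, 1.71, 16.4 and 0.874 FPKM. Only d/d replicates 1 and 3 exceeded all controls, and the groups overlapped. The log2 fold change was 1.20 (SE 0.775) with a limma adjusted p of 0.405. Leaving out 1 uterus at a time gave log2 fold changes from 0.54, without d/d replicate 3, to 1.75, with limma adjusted p from 0.232 to 0.654. The group means, 1.58 ± 0.998 and 6.34 ± 7.12 FPKM (SD, n = 4 each), differed by less than the spread among the d/d mice, with an exact permutation p of 0.257.

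Muc20, a small mucin known to bind the receptor MET, shared the pattern at a similar level. The f/f uteri held 0.440, 1.07, 1.06 and 0.201 FPKM. The d/d uteri held 5.34, 1.54, 10.9 and 0.748 FPKM. Replicates 1, 2 and 3 of the d/d group were above all controls and replicate 4 was below controls 2 and 3. The log2 fold change of Muc20 was 1.68 (SE 0.669) with a limma adjusted p of 0.205, and the exact permutation p was 0.0857. The group means were 0.691 ± 0.439 and 4.64 ± 4.65 FPKM (SD, n = 4 each), so in d/d the SD was as large as the mean.

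Because Muc4 and Muc20 end on each other, their ratio was taken in each uterus, a measure chosen after the values were seen and given with no test. Muc20 over Muc4 was 0.310, 0.646, 0.371 and 0.479 in f/f, and 0.837, 0.898, 0.668 and 0.856 in d/d. The groups did not overlap, and Muc4 exceeded Muc20 in all 8 uteri. Sequence windows of 76 bases, the read length, were identical in both transcripts for 3.46% of Muc4 and 10.2% of Muc20. No such window of Muc1, Muc15 or Clca1 matched another gene. Tnk2, on the far side of this pair, was at 14.6 FPKM in f/f and 13.0 FPKM in d/d on average (log2 fold change −0.16, limma adjusted p 0.201).

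Muc15, a small membrane mucin, was barely detected. Its values corresponded to 1, 4, 22 and 4 fragments in the f/f uteri. They corresponded to 8, 3, 10 and 3 fragments in the d/d uteri, which is no more than 0.035 FPKM in any of these. The highest value, 0.078 FPKM, was in f/f replicate 3, and the groups overlapped (exact permutation p = 0.771). No fold change is given at this level, and a difference was not detectable at this depth. Ano3, whose span encloses Muc15, was at 0.051 to 0.118 FPKM in f/f and at 0.039 to 1.13 FPKM in d/d, with the highest value in replicate 3. The genes share 1.71% of the exon bases of Muc15.

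Clca1 had the widest range of the genes followed. In the f/f uteri it stood at 0.102, 0.194, 14.8 and 0.216 FPKM. In the d/d uteri it stood at 116, 17.0, 207 and 0.795 FPKM. Replicates 1, 2 and 3 of the d/d group were above all controls, but d/d replicate 4 was below f/f replicate 3. The FPKM of the highest and lowest uterus differed by 2028 times, and these values rested on 72424 and 24 fragments in libraries of different depth. The means were 3.84 ± 7.33 FPKM in f/f and 85.1 ± 95.7 FPKM in d/d (SD, n = 4 each), so the SD exceeded the mean in both groups. The log2 fold change was 4.21 (SE 1.71) with a limma adjusted p of 0.212 and an exact permutation p of 0.0571. Leaving out 1 uterus at a time gave log2 fold changes from 3.24 to 5.68 and limma adjusted p from 0.0817 to 0.387.

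Counted together, 0 of the 4 genes tested passed the adjusted threshold in limma, where 2.62% of all genes passed, 1.09% upward and 1.53% downward. At an unadjusted p under 0.05 with a fold change of at least 1.4, the rule in the study's methods, 3 of 4 passed upward (Muc1, Muc20 and Clca1), and none downward, against 8.8% of all genes, 4.7% upward and 4.1% downward. The study used that rule on counts with DESeq2, while here it was used on the limma fit, so these are not the study's own calls. All 4 log2 fold changes were above 0, as were those of 46.7% of all genes. None of the 4 had groups that did not overlap, which 15.4% of all genes had, 5.49% with d/d higher. The count of 3 rested on single uteri: without f/f replicate 1, f/f replicate 4, d/d replicate 1 or d/d replicate 3 it was 1, leaving Muc1 alone, without f/f replicate 2 or d/d replicate 2 it was 2, and without d/d replicate 4 it was 4.

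The d/d uteri fell in the same order for Muc1, Muc4, Muc20 and Clca1, with replicate 3 highest, then 1, then 2, and replicate 4 lowest. In the f/f group replicate 3 was highest for Muc1, Muc4 and Clca1. For Muc20, f/f replicates 2 and 3 lay side by side at 1.07 and 1.06 FPKM. The spread within groups on the log2 scale (pooled SD) was 0.546 for Muc1, 1.28 for Muc4, 1.10 for Muc20 and 2.83 for Clca1. Of all genes tested, 92.1% had a smaller spread than Muc1, 99.2% than Muc4, 98.8% than Muc20 and 99.97% than Clca1. Nr2f2 itself was lowest in d/d replicate 3, at 6.90 FPKM, against 9.42 to 9.74 FPKM in the other d/d uteri.

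**Figure D2:**
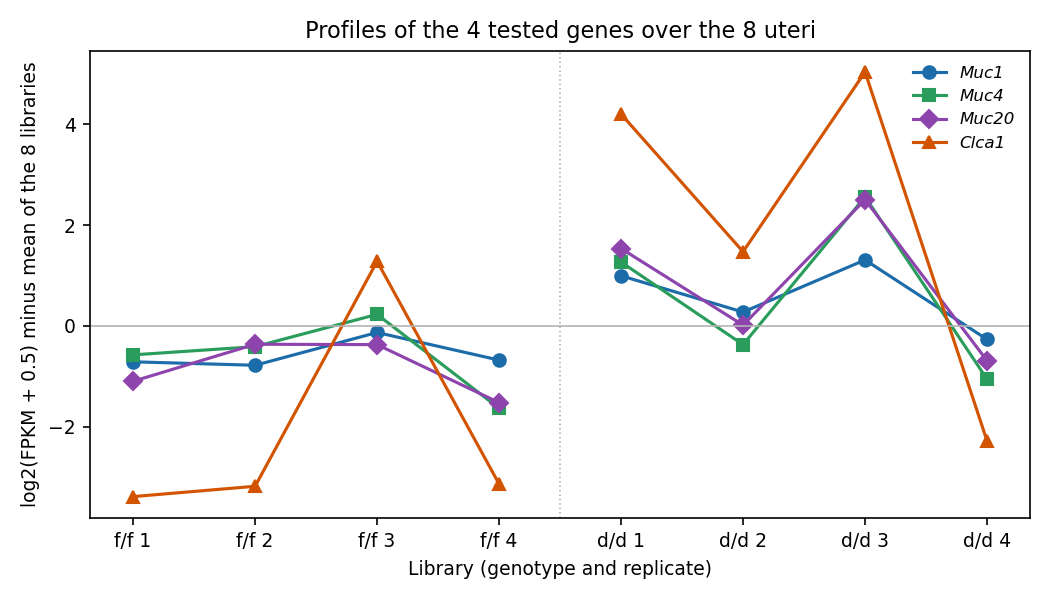
Log2(FPKM + 0.5) of Muc1, Muc4, Muc20 and Clca1 in each uterus, each gene shown as the difference from its own mean over the 8 libraries. Lines join the points of a gene and carry no order, and d/d replicate 4 lies lowest in its group for all 4 genes while d/d replicate 3 lies highest.

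Across the 8 uteri the log2 levels of the 4 genes moved together. Pearson's r was 0.968 between Muc1 and Clca1, 0.943 between Muc1 and Muc20, 0.961 between Muc4 and Muc20 and 0.881 between Muc1 and Muc4. Within the 4 d/d uteri these were 0.984, 0.989, 0.998 and 0.980, and within the 4 f/f uteri 0.989, 0.422, 0.889 and 0.623. For Clca1 with Muc4 and with Muc20, r was 0.885 and 0.909 over the 8 uteri, 0.931 and 0.948 within d/d, and 0.694 and 0.545 within f/f. The f/f value of 0.989 for Muc1 and Clca1 rested mostly on replicate 3, with Clca1 at 14.8 FPKM against 0.102 to 0.216 FPKM in the other f/f uteri. These values are descriptive. The points share libraries and depth, and Muc4 and Muc20 also share exon bases.

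The genes whose profiles over the 8 libraries were most like each gene, among 13212 genes whose mean reached 1 FPKM, were taken as the 3 highest by Pearson's r. For Muc1 they were the long non-coding RNA Dlx6os1 (r = 0.992), Cd24a, a heavily glycosylated surface protein (0.991), and Egfl6 (0.990). For Muc4 they were Clu, the secreted chaperone clusterin (0.988), Gpd1 (0.985) and Man1a, a mannosidase of N-glycan trimming (0.976). For Muc20 they were the potassium channel gene Kcnn4 (0.988), the mucin-like Parm1 (0.987) and Zc3h12a, a ribonuclease of inflammatory transcripts (0.982). For Clca1 they were Cdk18 (0.982), Clip4 (0.976) and the complement regulator Cfi (0.975).

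The make-up of the mucin pool was taken as the share of each mucin in the summed FPKM of Muc1, Muc4, Muc15 and Muc20. The sum was 18.0, 18.1, 28.3 and 17.1 FPKM in f/f. It was 65.5, 35.7, 94.3 and 23.7 FPKM in d/d, with an exact permutation p of 0.0571. Muc1 made up 89.2% ± 5.15 of the pool in f/f and 84.3% ± 10.1 in d/d (SD, n = 4 each, exact permutation p = 0.457). Muc20 made up 3.31% ± 2.01 and 6.80% ± 3.85 (SD, n = 4 each, exact permutation p = 0.171), and Muc4 7.39% ± 3.41 and 8.90% ± 6.23 (SD, n = 4 each, exact permutation p = 0.714). The pool had its lowest Muc1 share, 71.0%, in d/d replicate 3, where Muc4 reached 17.4% and Muc20 11.6%. The d/d minus f/f difference in the Muc1 share was −4.91 percentage points over all uteri and −0.49 without d/d replicate 3, and that in the Muc20 share was 3.49 and 1.89. That in the Muc4 share was 1.51 and −1.31, and −0.13 without f/f replicate 4, so its direction was not stable.

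In whole tissue a higher content of epithelial cells and more RNA per epithelial cell cannot be told apart. Of 20 epithelial marker genes, 17 had a positive log2 fold change and 3 rose (Krt8, Ap1m2 and Elf3), with a summed level of 1121 to 1430 FPKM in f/f and 1495 to 1614 FPKM in d/d. With 1 uterus left out in turn Krt8 passed in 8 of 8 fits, Ap1m2 in 4 and Elf3 in 2. The mucins and Clca1 were also set against the mean log2 level of the 16 epithelial markers that are not keratins, which was 5.18 ± 0.189 in f/f and 5.42 ± 0.110 in d/d (SD, n = 4 each). The keratins were left out of this mean because Krt8 was known to differ. On that relative log2 scale the d/d minus f/f difference was 0.91 for Muc1 (exact permutation p = 0.0571). It was 1.44 for Muc20 (exact permutation p = 0.114), 0.96 for Muc4 (exact permutation p = 0.314) and 3.97 for Clca1 (exact permutation p = 0.0857). Without d/d replicate 3 the difference was 0.65 for Muc1, 0.29 for Muc4, 0.87 for Muc20 and 2.98 for Clca1, and without d/d replicate 4 it was 5.40 for Clca1. With the keratins kept in, over all uteri, the difference was 0.81 for Muc1 (exact permutation p = 0.0857) and 0.85 for Muc4 (exact permutation p = 0.4). It was then 1.33 for Muc20 (exact permutation p = 0.114) and 3.87 for Clca1 (exact permutation p = 0.0857). By construction, each difference against the 16 markers over all uteri was the unscaled log2 fold change minus the difference of the marker mean, 0.24. The marker mean was 5.57, 5.41, 5.37 and 5.32 in d/d replicates 1 to 4, so replicate 4 was lowest for the markers as for the 4 genes, while replicate 3, highest for the 4 genes, was below replicates 1 and 2.

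**Figure D3:**
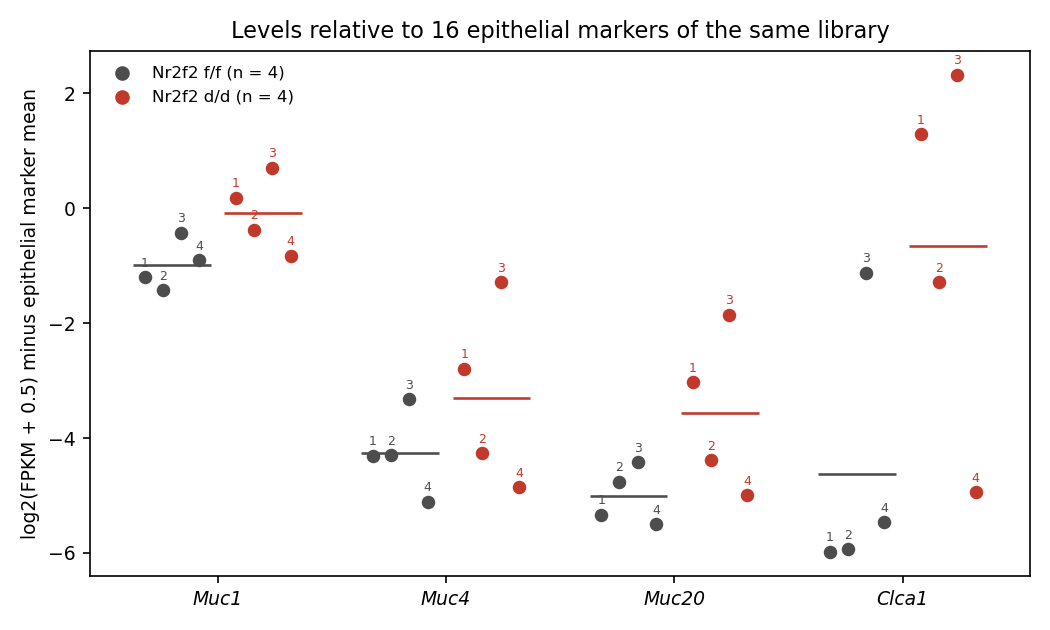
Log2 level of Muc1, Muc4, Muc20 and Clca1 minus the mean log2 level of 16 epithelial markers in each f/f and d/d uterus. Clca1 in d/d replicate 3 reached 2.33 above the marker mean while d/d replicate 4 lay at −4.95, among the f/f values.

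Markers of other cells that a dissected uterus can hold also differed between the groups, and their part in the mucin values was not tested. Among 10 markers of the squamous epithelium of cervix and vagina, a tissue that can express mucins, 4 were tested, all with positive log2 fold changes. Of these, Krt5, Krt13 and Krt15 reached the mean of 0.5 FPKM only through the d/d uteri. Their f/f means were 0.0125, 0.07 and 0.118 FPKM, so the filter fixed the sign of their log2 fold changes. Dsg3, under the filter, went the other way, with means of 0.57 FPKM in f/f and 0.13 FPKM in d/d. Krt15 passed the adjusted threshold (limma adjusted p 0.0491). It passed in only 1 of the 8 fits that left out 1 uterus, the fit without d/d replicate 4. Of the 8 other settings without a replicate block it passed in 2. The summed level of the 10 was 1.28 to 3.05 FPKM in f/f, with d/d values of 17.0, 20.8, 22.4 and 2.72 FPKM for replicates 1 to 4. In d/d replicates 1 to 3 most of the sum was Krt15 (7.78, 11.2 and 10.9 FPKM) and Krt5 (4.81, 5.65 and 4.86 FPKM). Replicate 4, lowest for the mucins, was also lowest for these markers, while replicates 1 and 2 stood in the opposite order. For 8 mesothelial markers the sums were 76.8 to 106 FPKM in f/f and 99.6 to 126 FPKM in d/d, and Msln rose, passing in 1 of the 8 leave-one-out fits. Of the 8 log2 fold changes 7 were positive. Wt1, with the highest f/f mean of these markers, went the other way, with means of 40.5 and 32.2 FPKM. For 7 goblet cell markers the sums were 3.57 to 11.9 FPKM and 9.89 to 56.7 FPKM. Most of each sum was Fcgbp, and none of the list rose or fell.

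Uterine gland markers summed to 249 to 3332 FPKM in f/f and 96.9 to 193 FPKM in d/d, and Spink1 fell among 9 tested. Much of the f/f range came from replicate 2, where Spink1 was at 1332 FPKM and the proteases Prss28 and Prss29 at 510 and 1444 FPKM. In f/f replicates 3 and 4 Spink1 was at 165 and 115 FPKM, while neither protease exceeded 2.80 FPKM. Of the 9 log2 fold changes 4 were positive and the median was −0.02. Spink1 passed in 2 of the 8 fits that left out 1 uterus. Oviduct and ciliated cell markers overlapped (31.6 to 62.0 and 21.7 to 87.7 FPKM) with none called. Neutrophil markers summed to 3.41 to 21.2 FPKM in f/f and 18.6 to 40.9 FPKM in d/d, and lymphocyte markers to 17.3 to 29.2 and 32.2 to 184 FPKM, with the 184 in d/d replicate 4. In d/d the neutrophil sums were mostly S100a8 and S100a9, while Retnlg had means of 2.38 FPKM in f/f and 0.536 FPKM in d/d. The cytotoxic granule gene Gzma made up most of the lymphocyte sums in d/d, at 6.47 to 13.3 FPKM in f/f and 22.4 to 150 FPKM in d/d. No gene in either list passed the adjusted threshold. Of 6 endothelial markers 5 fell (Pecam1, Cdh5, Kdr, Emcn and Egfl7, each passing in 2 to 5 of the 8 leave-one-out fits), with sums of 252 to 331 FPKM in f/f and 149 to 193 FPKM in d/d. Stromal markers summed to 1257 to 1526 FPKM in f/f and 1696 to 2726 FPKM in d/d, and among 9 tested Dcn rose and Hand2 fell, passing in 4 and 2 of the 8 fits that left out 1 uterus. The sums were carried by Dcn, with means of 410 and 705 FPKM, and Col1a1, with means of 175 and 608 FPKM. Of the 9 log2 fold changes 5 were negative, with a median of −0.09, and Vim had means of 380 and 237 FPKM. Smooth muscle and macrophage markers overlapped between groups, with none called. No marker list had a gene at 0 in every library.

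Of 19 other mucin genes, 15 had a row and 6 were tested, 4 with positive and 2 with negative log2 fold changes, and the median was 0.13 beside −0.02 for all genes. The gel-forming mucins of goblet cells and glands were at or near 0: Muc2 reached at most 0.082 FPKM, Muc5b 0.032, Muc6 0.021, Muc5ac 0.019 and Muc19 0.016. Emcn, the endothelial sialomucin endomucin, was the 1 gene of the list that passed, and it fell. Its level was 43.5 ± 7.37 FPKM in f/f and 26.3 ± 1.74 FPKM in d/d (SD, n = 4 each), and the log2 fold change was −0.70 (SE 0.123, limma adjusted p 0.0302), and it is itself among the endothelial markers counted above. It passed in 2 of the 8 fits that left out 1 uterus. Parm1, a mucin-like androgen-responsive membrane protein, was higher in all 4 d/d uteri than in any control (log2 fold change 0.92) but did not pass, with a limma adjusted p of 0.169. Podxl, podocalyxin, had a log2 fold change of −0.31 (limma adjusted p 0.274).

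Of the 7 other Clca genes listed, 3 were tested, Clca3a1 and Clca2 with negative log2 fold changes and Clca3a2 with a positive one, and the median was −0.63. Clca3a1 stood at 38.5, 18.7, 27.8 and 22.1 FPKM in f/f and at 14.2, 9.73, 15.4 and 14.8 FPKM in d/d. All d/d uteri were below all controls (log2 fold change −0.93, SE 0.233), with a limma adjusted p of 0.0748. Clca2, the neighbour of Clca1, was at 4.15 ± 0.890 FPKM in f/f and 2.46 ± 0.307 FPKM in d/d (SD, n = 4 each), again without overlap, with a limma adjusted p of 0.0761. With 1 uterus left out in turn, Clca2 passed in 1 of 8 fits, without f/f replicate 2 (limma adjusted p 0.0214), and the highest adjusted p was 0.188. It passed in 0 of the 8 other settings without a replicate block. Clca3a2 ordered the d/d uteri as Clca1 did, from 15.6 FPKM in replicate 3 to 0.636 FPKM in replicate 4, and was also highest in replicate 3 of the f/f group, at 3.68 FPKM. Its log2 fold change was 0.59 (SE 0.797), with a limma adjusted p of 0.708.

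**Figure D4:**
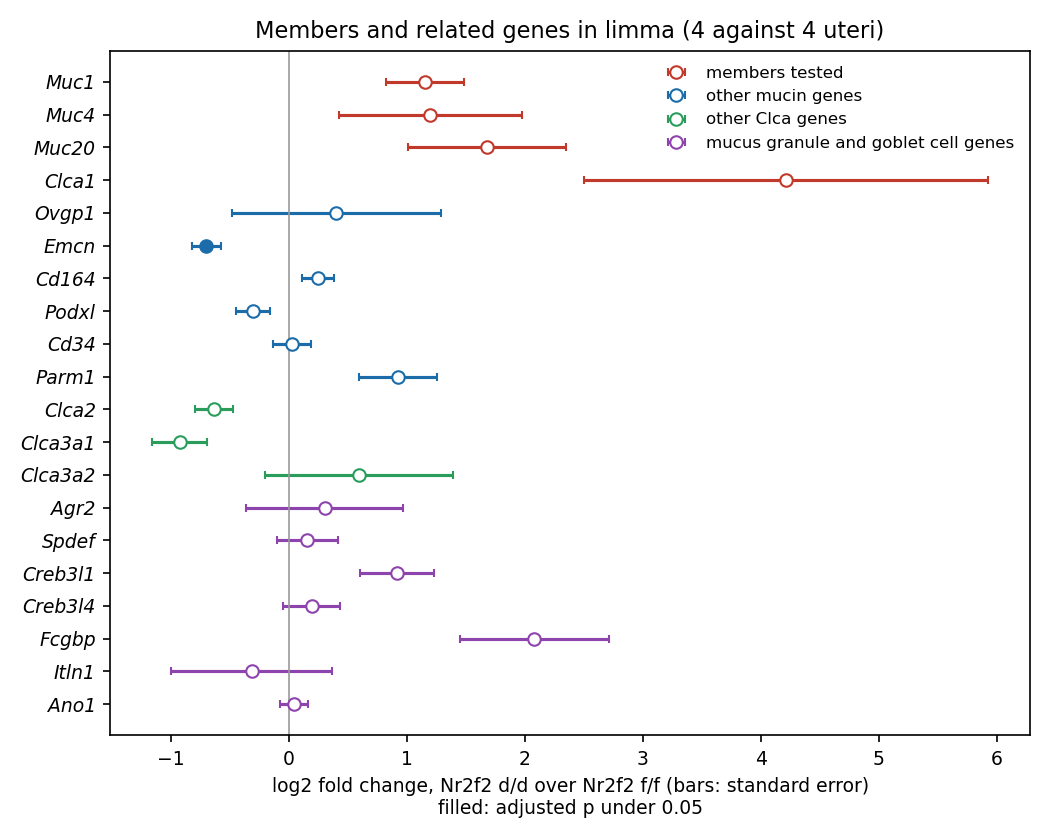
Log2 fold change, d/d minus f/f, with its SE for Muc1, Muc4, Muc20 and Clca1 and for the tested genes of the other mucin, Clca and mucus granule lists. Filled points have an adjusted p under 0.05, which only Emcn does among the genes drawn, and the Clca1 bar is the longest, with an SE of 1.71.

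Genes of mucus granules and goblet cells numbered 16, of which 7 were tested, 6 with positive log2 fold changes. By limma 0 passed the adjusted threshold and 2 passed at an unadjusted p under 0.05 with a fold change of at least 1.4. Fcgbp, which encodes an IgG-binding mucus protein, was at 4.88, 2.73, 10.5 and 6.12 FPKM in f/f and at 55.5, 14.7, 49.9 and 8.91 FPKM in d/d. As with Clca1, d/d replicate 4 was lowest of its group and below f/f replicate 3 (log2 fold change 2.08, SE 0.631, limma adjusted p 0.118). Creb3l1, a membrane-bound factor of secretory capacity, was at 11.3 ± 3.24 FPKM in f/f and 22.5 ± 9.36 FPKM in d/d (SD, n = 4 each), with a limma adjusted p of 0.154. Creb3l4, a related factor, had a log2 fold change of 0.19 (limma adjusted p 0.686).

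The enzymes that build mucin-type O-glycans were measured by 44 genes, 34 of them tested. Of these 24 had positive and 10 negative log2 fold changes, with a median of 0.24, and 0 passed the adjusted threshold in limma. By the unadjusted rule 4 passed upward and 2 downward. The lowest p was that of C1galt1c1, the chaperone of the core 1 galactosyltransferase, at 11.5 ± 0.990 FPKM in f/f and 15.3 ± 1.71 FPKM in d/d (SD, n = 4 each, limma adjusted p 0.0757). Galnt12, which starts O-glycans, had a log2 fold change of 0.73 (limma adjusted p 0.0945), and St3gal4, a sialyltransferase, had one of −0.41 (limma adjusted p 0.123). Fut2, the fucosyltransferase that makes H antigen on epithelial surfaces, is named after its values were seen. It was at 6.11 to 30.3 FPKM in f/f and at 35.5 to 43.7 FPKM in d/d, with a log2 fold change of 1.27 (SE 0.416) and a limma adjusted p of 0.141. Unlike the mucins, Fut2 varied little among the d/d uteri.

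Proteins that bind, anchor or cut membrane mucins were measured by 20 genes, 19 tested, 10 with positive and 9 with negative log2 fold changes. Of these 3 rose and 0 fell. Slc9a3r1, the apical scaffold NHERF1, was at 19.5 ± 1.82 FPKM in f/f and 31.8 ± 2.61 FPKM in d/d (SD, n = 4 each, log2 fold change 0.69, limma adjusted p 0.0149). Msln, mesothelin, a ligand of the mucin encoded by Muc16, was at 9.78 ± 2.13 FPKM and 17.1 ± 1.38 FPKM (SD, n = 4 each, log2 fold change 0.80, limma adjusted p 0.0398). Lgals3, the mucin-binding lectin galectin-3, was at 19.4 ± 2.35 FPKM and 33.1 ± 7.38 FPKM (SD, n = 4 each, log2 fold change 0.74, limma adjusted p 0.0481). When single uteri were left out in turn, Slc9a3r1 passed in 6 of 8 fits, Msln in 1, without f/f replicate 3, and Lgals3 in 1, without d/d replicate 4. Under the 8 other settings without a replicate block Slc9a3r1 passed in 8, Msln in 7 and Lgals3 in 4. Msln is also a mesothelial marker and Lgals3 is abundant in macrophages.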

How the data were processed

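Whole-uterus RNA of 8 mice was sequenced as 76-bp paired ends with a kit that does not mark strand. Per the labels and the study's methods, the authors trimmed reads (cutadapt 1.12), aligned them to mm10 (STAR 2.5.2b), counted them (featureCounts 1.5.0-p1) and deposited FPKM per gene. Cufflinks 2.0.2 is also named, without its role. The annotation and the strand setting are not given in the sources used here. The members and gene lists were chosen with earlier results of these data known.

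FPKM were tested with limma 3.58.1 (R 4.3.3) on log2(FPKM + 0.5), mean of at least 0.5 FPKM, with a mean-variance trend, two-sided. Fold changes on this scale understate the change of low genes. Depth was recovered from single-exon genes whose length was equal in GENCODE vM21 and RefSeq. At the totals found, 96.8 to 98.5% of values were whole fragments within 0.1. A gene length enters each such value, so a count test was not run. Single values were compared by exact two-sided permutation over 70 arrangements.

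The named genes were all members, their neighbours in the genome, the 3 genes with the lowest p in each context list, those past the adjusted threshold in the lists, and the 3 genes most like each member. Fut2, the gel-forming mucins, the squamous markers besides Krt15 and the genes that carry or oppose a marker sum were named after their values were seen. Whether replicates are separate litters is not given, so p-values measure the spread between these mice. Alternatives changed the pseudocount (0.1, 1 FPKM), the filter (none, 1 FPKM), the scaling, the variance model, a replicate block and each library in turn. Muc3, Muc3a, Muc17 and Muc21 were not analysed here.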

Additional observations from a re-analysis of the deposited data

Results flagged for a closer look

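In 4 groups of values 1 uterus stood apart, with a gap to the nearest other uterus, as a share of the whole range of its group, above Dixon's critical value. In f/f replicate 3, Muc1 was at 24.3 FPKM, a gap of 0.871 of the range. In the same uterus Clca1 was at 14.8 FPKM, a gap of 0.992, and its log2 level relative to the epithelial markers was −1.12, a gap of 0.894. In d/d replicate 3 Nr2f2 was at 6.90 FPKM, lowest of its group, a gap of 0.888. The measure was taken over 30 groups, several of them on the same genes and libraries, and chance alone flags about 5% of such groups.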

How the results depend on the processing

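The log2 fold changes of Muc1, Muc4, Muc20 and Clca1 stayed above 0 in all 9 alternatives to the processing and in all 8 fits that left out 1 uterus. Across the 9 they ranged from 1.13 to 1.18 for Muc1, 1.05 to 1.38 for Muc4, 1.38 to 2.14 for Muc20 and 3.73 to 5.08 for Clca1, and none passed the adjusted threshold. With uteri left out the ranges were 0.91 to 1.44 for Muc1 (adjusted p 0.0447 to 0.230, passing without d/d replicate 4), 0.54 to 1.75 for Muc4 and 1.13 to 2.19 for Muc20. The number of these genes called ranged from 0 to 1 and the number past the unadjusted rule from 1 to 4. The difference of Muc20 relative to the epithelial markers ranged from 0.87 to 1.92 and reached the smallest p, 0.0286, without d/d replicate 4. That of Muc1 ranged from 0.65 to 1.16, of Muc4 from 0.29 to 1.48 and of Clca1 from 2.98 to 5.40. The difference in the Muc1 share ranged from −7.87 to −0.49 percentage points and in the Muc20 share from 1.89 to 4.71. The difference in the Muc4 share of the mucin pool, 1.51 percentage points, ranged from −1.31 to 3.25, and was −0.13 without f/f replicate 4 and −1.31 without d/d replicate 3.

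Calls over all genes, 375, ranged from 42 to 348 with 1 uterus left out and fewer samples in the fit. With the replicate number as a block 1 gene was called and none of the mucins. Same-numbered mice did not deviate together (r across genes from −0.204 to 0.0452). Under the other numbering, that of the deposited columns, the 3 shared numbers gave −0.204, 0.148 and −0.0403. So few mice cannot show whether the groups were paired. The block used the numbers of the titles. Median-ratio scaling moved the share of calls that were higher in d/d from 41.6% to 53.0%. In the context lists, the call of Emcn and the 3 calls among mucin partners were lost under the block, and without a filter on low values 1 gene of mucin partners and 1 of O-glycosylation passed.

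With 4 mice a group and the spread given, Clca1, Muc4 and Muc20 carry wide errors. Muc15 rested on 1 to 22 fragments per library, too few for a fold change.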
